A study of Mus musculus with 21 samples.

Results

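The small leucine-rich proteoglycans (SLRPs) described here are 10 genes, Dcn, Bgn, Aspn, Ecm2, Lum, Fmod, Prelp, Omd, Kera and Ogn, which the count tables list in capitals as DCN, BGN, ASPN, ECM2, LUM, FMOD, PRELP, OMD, KERA and OGN. They were taken by symbol from the 3 tables that list 24532 genes for mouse embryonic fibroblasts (MEF) and 24455 genes each for wound-healing fibroblasts and for fibroblasts of mammary tumours (MMTV-CAF), and all 10 are listed in every table. RNA was sequenced from 21 cultures in 7 groups of 3, in order to compare cells with intact and with mutated or targeted Prrx1, a homeobox transcription factor gene, in each kind of fibroblast. WT, Prrx1 mutant and sgPrrx1 MEF came from embryos of embryonic day 10 to 13. The mutant carried the 129S-Prrx1tm1Jfm/Mmmh allele, a LacZ knock-in, and sgPrrx1 MEF were MEF in which Prrx1 was targeted by CRISPR/Cas9. WT and sgPrrx1 wound-healing fibroblasts were isolated from the wounded dorsal skin of mice on day 10 after wounding, and WT and sgPrrx1 MMTV-CAF came from tumours of MMTV-PyMT mice, in which the mammary tumour virus promoter drives the polyoma middle T oncogene. The guide control sgNS is named as the WT of the targeted cells, and 1 WT MEF group served both the mutant and the sgPrrx1 MEF. The mutant and sgPrrx1 groups are together called Prrx1-targeted below, and Prrx1 protein was not measured in these data. The strain is given as C57BL/6 for the MEF and wound-healing fibroblasts and FVB/NJ for the MMTV-CAF, so that fibroblast type and strain cannot be told apart for the MMTV-CAF. All cells, controls included, had been made immortal with HPV E6/E7 before culture. Counts assigned to genes ranged from 69588655 to 134790440 per culture. The sources do not say whether the 3 cultures of a group came from separate animals, so p-values here measure only the spread between these cultures.

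SLRPs are secreted matrix proteins built of leucine-rich repeats, most of which carry chondroitin, dermatan or keratan sulfate chains. They bind fibrillar collagens and set the diameter and spacing of fibrils, and several of them hold or block growth factors such as TGF-beta. Fibroblasts are a main source of these proteins in skin, tendon and tumour stroma, and decorin and lumican are widely used as fibroblast markers. The family is split into classes by protein sequence, with decorin, biglycan and asporin in class I, lumican, fibromodulin, PRELP, osteomodulin and keratocan in class II and osteoglycin in class III.

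Of the 10 genes, 9 lie in 3 clusters of neighbouring SLRP genes in the mouse genome (RefSeq, GRCm38.p6, the mm10 build of the counts). On chromosome 10, Dcn (chr10:97479500-97518163), Lum (chr10:97565501-97572703), Kera (chr10:97606962-97613688) and Epyc (chr10:97644068-97681908) follow each other within 202.4 kb with no other protein-coding gene among them. On chromosome 13, Ecm2 (chr13:49504810-49532789), Aspn (chr13:49544443-49567565), Omd (chr13:49582462-49592612) and Ogn (chr13:49608015-49624501) lie within 119.7 kb, all inside the span of the opposite-strand gene Cenpp, with which none shares an exon base in Gencode M1. On chromosome 1, Prelp (chr1:133910304-133930102) lies between Optc and Fmod (chr1:134037254-134048280), and Bgn (chrX:73483601-73495936) is on the X chromosome. Prelp shares 350 exon bases with the opposite-strand transcript Gm15851, and because counting by strand is not given in the sources used here, reads of the pair cannot be told apart. RefSeq promoter entries were matched for 8 of the 10 genes (all but Dcn and Lum). The 250 bases before the start of the entry are shown for 3 of them, because Aspn and Ogn are members of the chromosome 13 cluster that moved in opposite directions in MMTV-CAF and Prelp rose there with Ogn. For Prelp the start of the RefSeq promoter entry lies inside the gene span given above, not at its upper end, so that another start of the gene is not covered by the stretch shown. They lie at chr13:49544193-49544442 (plus strand), chr13:49607765-49608014 (plus strand) and chr1:133921402-133921651 (minus strand). Capitals mark the letters TATAAA and CCAAT on either strand.
Aspn: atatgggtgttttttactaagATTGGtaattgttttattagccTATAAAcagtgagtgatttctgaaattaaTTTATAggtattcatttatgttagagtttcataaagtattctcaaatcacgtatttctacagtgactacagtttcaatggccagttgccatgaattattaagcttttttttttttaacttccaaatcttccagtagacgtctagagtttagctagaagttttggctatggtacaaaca
Ogn: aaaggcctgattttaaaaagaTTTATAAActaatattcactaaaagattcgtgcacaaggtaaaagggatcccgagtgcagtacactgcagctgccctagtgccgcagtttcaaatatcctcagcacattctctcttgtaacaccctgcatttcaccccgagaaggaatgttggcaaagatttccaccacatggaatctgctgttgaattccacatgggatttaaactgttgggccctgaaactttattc
Prelp: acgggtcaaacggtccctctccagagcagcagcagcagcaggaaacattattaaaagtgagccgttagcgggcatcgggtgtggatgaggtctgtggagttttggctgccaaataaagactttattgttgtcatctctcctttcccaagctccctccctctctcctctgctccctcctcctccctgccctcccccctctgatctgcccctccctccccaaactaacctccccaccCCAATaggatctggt
TATAAA, searched on both strands, was found upstream of Aspn and of Ogn, in 2 of 8 SLRP promoters against 12.4% of 32851 promoter entries. In Ogn the matches on the 2 strands overlap. CCAAT was found in 3 of 8 (Prelp, Kera and Aspn) against 33.8% of all entries. The palindrome TAATTA, a core that homeodomain proteins such as Prrx1 can bind, was found in 0 of 8, and in 4.84% of all entries. These are matches of letters in 250 bases and no more.

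Prrx1 itself was counted in every culture and was lower in each Prrx1-targeted group. In CPM, which are counts scaled to library size with TMM over all 21 cultures together, Prrx1 stood at 192, 166 and 184 in WT MEF, 26.1, 20.7 and 19.9 in Prrx1 mutant MEF and 126, 94.9 and 140 in sgPrrx1 MEF. It stood at 146, 143 and 152 CPM in WT and 65.3, 64.2 and 65.1 CPM in sgPrrx1 wound-healing fibroblasts, and at 627, 632 and 636 CPM in WT and 308, 309 and 301 CPM in sgPrrx1 MMTV-CAF. The groups did not overlap in any of the 4 comparisons. A guide-induced break need not remove the transcript, and sgPrrx1 MEF still held 66.6% of the WT mean, against 12.3% in mutant MEF. The fibroblast label was checked against Pdgfra, Pdgfrb, Col1a1, Col1a2, Thy1 and Vim, none of which was at 0 in any group. Their summed level was lower in each Prrx1-targeted group, with means of 11050 CPM in WT, 5921 CPM in mutant and 9954 CPM in sgPrrx1 MEF, 7800 and 3090 CPM in WT and sgPrrx1 wound-healing fibroblasts, and 26124 and 13362 CPM in WT and sgPrrx1 MMTV-CAF. Single markers went the other way, as 1 of the 6 was called higher in sgPrrx1 MEF (Vim, from a mean of 5075 to 6504 CPM) and 1 of the 6 in sgPrrx1 MMTV-CAF (Pdgfra, from 939 to 1835 CPM). The weakest of them was Thy1 in sgPrrx1 MMTV-CAF, at a mean of 0.641 CPM against 57.3 CPM in WT. In whole-culture RNA, fewer cells of a type and less RNA per cell cannot be told apart, and the part of these marker shifts in the SLRP results was not tested.

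Biglycan was the most abundant SLRP transcript in all 7 groups, with the smallest lead over the next gene in sgPrrx1 MMTV-CAF (477 against 304 RPKM for Dcn). To compare genes, levels were divided by merged exon length (RPKM, with Gencode M1 exons), and Bgn then made up 89.8% ± 0.495 (SD, n = 3) of the summed RPKM of the 10 genes in WT MEF, 90.6% ± 0.240 in WT wound-healing fibroblasts and 89.6% ± 0.237 in WT MMTV-CAF. The genes behind it differed by fibroblast type. In WT MEF they were Dcn (25.2 RPKM), Ogn (22.9 RPKM) and Aspn (10.3 RPKM), in WT wound-healing fibroblasts Ogn (29.6 RPKM), Dcn (4.94 RPKM) and Omd (3.96 RPKM), and in WT MMTV-CAF Prelp (50.4 RPKM), Ogn (45.3 RPKM) and Fmod (20.7 RPKM). Lum, often abundant in fibroblasts, was near the detection floor in MEF and wound-healing fibroblasts, with at most 19 counts in any WT culture of these. It was low but above the floor in WT MMTV-CAF, with 115, 170 and 165 counts. Kera, the keratocan gene known from cornea, had counts only in WT MMTV-CAF (10, 17 and 6).

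Between the 3 WT groups, each of the 9 genes tested differed in level (edgeR quasi-likelihood test with Benjamini-Hochberg adjustment, adjusted p at most 0.000510 among them), where 93.3% of all genes tested differed as well. WT MMTV-CAF had the highest level of Bgn, Aspn, Ecm2, Lum, Fmod, Prelp and Ogn, with log2 differences from WT MEF of 7.38 ± 0.11 (SE) for Fmod and 3.46 ± 0.09 for Prelp. Dcn was highest in WT MEF, 2.32 ± 0.10 above wound-healing fibroblasts and 0.64 ± 0.09 above MMTV-CAF on the log2 scale. Omd was lowest in WT MEF, and its level in MMTV-CAF and wound-healing fibroblasts was not distinguished (log2 difference -0.20, 95% interval -0.44 to 0.04, adjusted p = 0.116).

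**Figure D1:**
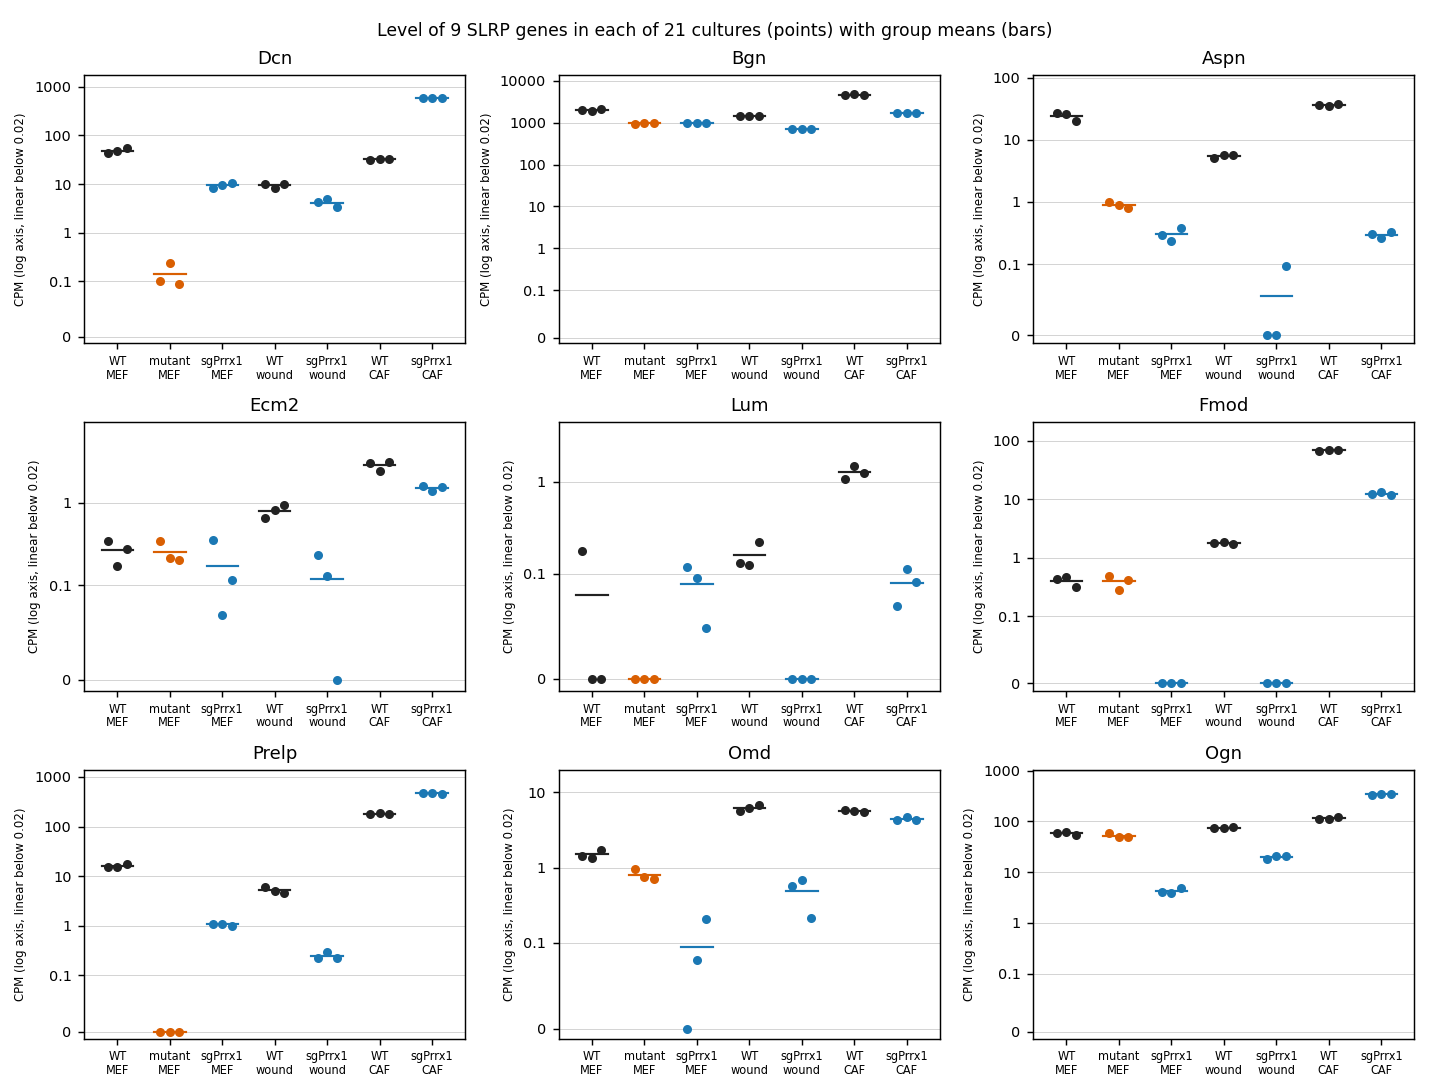
Level of 9 SLRP genes in CPM (y axis, log scale that is linear below 0.02 so that 0 can be drawn) in each culture (points) of the 7 groups (x axis), with the group mean as a bar, black for WT, orange for Prrx1 mutant and blue for sgPrrx1. Aspn and Bgn are lower in Prrx1-targeted than in WT cultures of all 3 fibroblast types, while Dcn, Prelp and Ogn are higher in sgPrrx1 than in WT MMTV-CAF.

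In Prrx1-targeted cells most of the members tested fell, and no member was called higher outside the MMTV-CAF. In Prrx1 mutant MEF, 5 of the 8 members tested fell and 0 rose, where 30.5% of all 13616 genes tested fell and 29.4% rose. In sgPrrx1 MEF, 7 of 8 fell and 0 rose, where 22.8% of 13372 genes fell and 20.3% rose. In sgPrrx1 wound-healing fibroblasts, 9 of 9 fell, where 39.3% of 13939 genes fell and 38.3% rose. In sgPrrx1 MMTV-CAF, 6 of 9 fell and 3 rose, where 41.9% of 13903 genes fell and 41.2% rose. The calls are at an adjusted p under 0.05 over all genes, and each called member had groups that did not overlap, as did 34.3% (mutant MEF), 28.8% (sgPrrx1 MEF), 40.4% (wound) and 42.7% (MMTV-CAF) of all genes in the lower direction and 42% in the higher direction in MMTV-CAF. The median log2 fold change of the members tested was -0.98, -3.85, -3.64 and -0.94 in that order, and -0.98, -3.51, -2.67 and -0.94 with genes at 0 counts placed at their bound, against a median of all genes within 0.01 of 0 in each comparison. Lum was not tested in either MEF comparison and Kera in no comparison, because too few counts were present. The mutant and sgPrrx1 MEF were both set against the same 3 WT cultures, so their results are not independent.

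**Figure D2:**
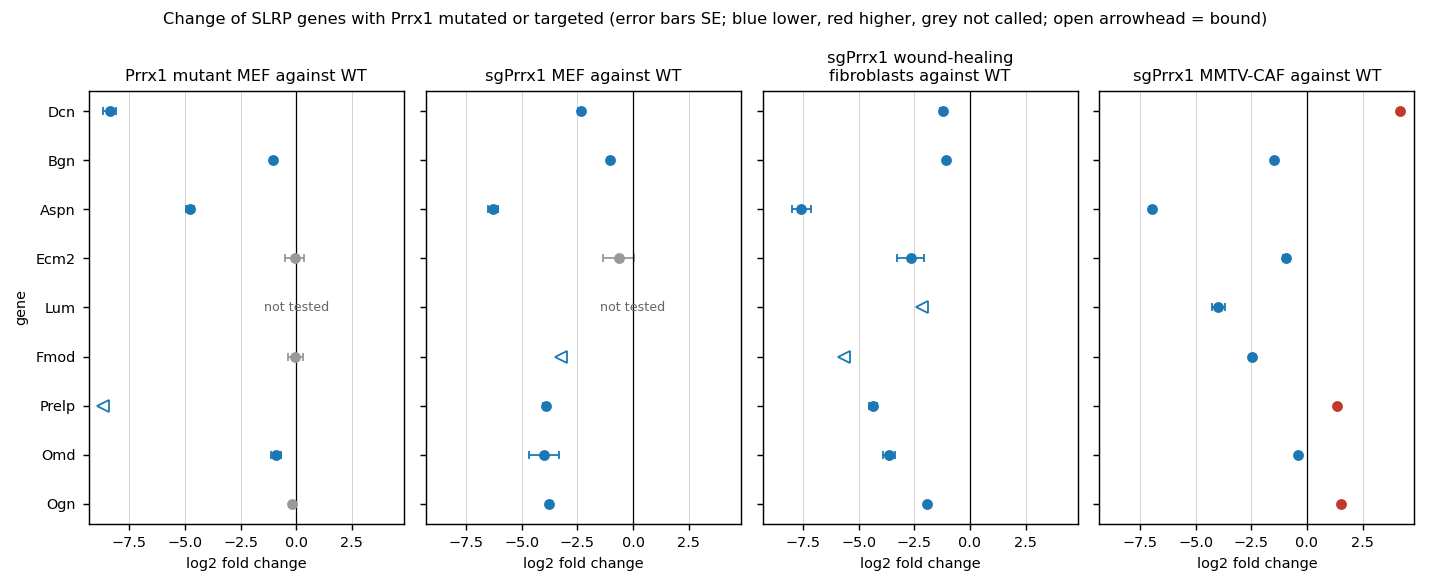
Log2 fold change (x axis) of 9 SLRP genes (rows) in 4 comparisons with WT (panels), with SE as error bars, blue for lower, red for higher and grey for not called at adjusted p 0.05. Open arrowheads mark genes at 0 counts in the Prrx1-targeted group and stand at the bound given by 3 counts per library; Lum was not tested in MEF. Every coloured point lies to the left of 0 except Dcn, Prelp and Ogn in MMTV-CAF.

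Among class I genes, Dcn, which encodes decorin, a proteoglycan with a single chondroitin or dermatan sulfate chain that coats collagen I fibrils and binds TGF-beta, moved strongly in both directions. It stood at 43.9, 48.1 and 54.3 CPM in WT MEF, at 0.103, 0.236 and 0.0880 CPM in mutant MEF and at 8.52, 9.76 and 10.4 CPM in sgPrrx1 MEF. The 3 groups were fully separated, the mutant MEF lowest with 8, 20 and 6 counts. The log2 fold change was -8.39 ± 0.29 (SE, adjusted p = 2.51e-06) in mutant MEF and -2.36 ± 0.12 (adjusted p = 2.39e-05) in sgPrrx1 MEF, which left 19.6% of the WT mean in the latter. Without mutant culture 2, the one with 20 counts, the mutant value was -8.98. In wound-healing fibroblasts Dcn stood at 10.0, 8.37 and 10.3 CPM in WT and at 4.20, 4.84 and 3.45 CPM with sgPrrx1, a smaller fall (log2 fold change -1.20 ± 0.13, adjusted p = 2.73e-05). In MMTV-CAF the direction was the opposite, with 31.6, 32.5 and 33.1 CPM in WT and 580, 597 and 587 CPM with sgPrrx1, an 18.2-fold higher mean (log2 fold change 4.16 ± 0.02, adjusted p = 1.42e-11). The sgPrrx1 MMTV-CAF thus held the highest Dcn level of the 7 groups and the mutant MEF the lowest.

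Bgn, which encodes biglycan, the close relative of decorin that carries a pair of such chains and can signal through Toll-like receptors 2 and 4, fell in all 4 comparisons to about the same extent in 3 of them. In MEF it stood at 1999, 1944 and 2102 CPM in WT, 935, 1015 and 1004 CPM in the mutant and 976, 984 and 969 CPM with sgPrrx1. In wound-healing fibroblasts it stood at 1485, 1464 and 1487 CPM in WT and 720, 713 and 693 CPM with sgPrrx1, and in MMTV-CAF at 4679, 4752 and 4665 CPM in WT and 1705, 1714 and 1675 CPM with sgPrrx1. No Prrx1-targeted group overlapped its WT. The log2 fold changes were -1.06 ± 0.08 (mutant MEF, adjusted p = 4.47e-05), -1.06 ± 0.07 (sgPrrx1 MEF, adjusted p = 5.34e-05), -1.07 ± 0.02 (wound, adjusted p = 2.20e-10) and -1.49 ± 0.02 (MMTV-CAF, adjusted p = 1.01e-10). The remaining level was 48.9%, 48.5%, 47.9% and 36.1% of the WT mean.

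Aspn, which encodes asporin, a class I member with an aspartate-rich end and no sugar chain that can bind TGF-beta, also fell in all 4 comparisons and kept at most 3.72% of the WT mean in any of them. It stood at 26.5, 26.2 and 19.8 CPM in WT MEF, 1.01, 0.885 and 0.807 CPM in mutant MEF and 0.296, 0.236 and 0.387 CPM in sgPrrx1 MEF. In MMTV-CAF it stood at 35.7, 34.8 and 37.4 CPM in WT and 0.302, 0.259 and 0.330 CPM with sgPrrx1, and in wound-healing fibroblasts at 466, 457 and 488 counts in WT and 0, 0 and 7 counts with sgPrrx1. Every Prrx1-targeted culture lay far below its WT. The log2 fold changes were -4.76 ± 0.18 (mutant MEF, adjusted p = 3.25e-06), -6.29 ± 0.21 (sgPrrx1 MEF, adjusted p = 7.40e-06), -7.58 ± 0.43 (wound, adjusted p = 4.65e-07) and -6.95 ± 0.07 (MMTV-CAF, adjusted p = 9.65e-11). The wound value of Aspn is loosely set, since leaving out 1 culture moved it between -11.92 (without the sgPrrx1 culture with 7 counts, which leaves only counts of 0) and -6.96. Ecm2, a related leucine-rich matrix protein gene next to Aspn, was a low transcript, with 24, 12 and 24 counts in WT MEF, 27, 18 and 14 in mutant MEF and 24, 3 and 9 in sgPrrx1 MEF. These MEF groups overlapped and no change was called, with 95% intervals of the log2 fold change of -1.04 to 0.89 and -2.26 to 0.96. Leaving out 1 culture moved these changes between -0.37 and 0.16 in mutant MEF and between -1.69 (without sgPrrx1 culture 1) and -0.20 (without sgPrrx1 culture 2) in sgPrrx1 MEF, and neither was called. Ecm2 fell from 0.657, 0.828 and 0.938 CPM to 0.235, 0.129 and 0 CPM in wound-healing fibroblasts (log2 fold change -2.67 ± 0.59, adjusted p = 0.00299, and -3.50 without sgPrrx1 culture 1) and from 3.02, 2.40 and 3.16 CPM to 1.61, 1.37 and 1.55 CPM in MMTV-CAF (-0.94 ± 0.14, adjusted p = 0.000280).

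Among class II genes, Prelp, whose protein has a basic end that binds heparan sulfate and ties basement membranes to collagen, went from a loss of all counts in one group to a gain in another. It had 1046, 1071 and 1523 counts in WT MEF and 0, 0 and 0 counts in mutant MEF, which is at least 407-fold lower with a floor of 3 counts per library (adjusted p = 6.02e-06). In sgPrrx1 MEF it had 74, 74 and 78 counts (log2 fold change -3.93 ± 0.11, adjusted p = 4.25e-06). In wound-healing fibroblasts it stood at 5.94, 5.03 and 4.60 CPM in WT and 0.224, 0.300 and 0.226 CPM with sgPrrx1 (-4.36 ± 0.17, adjusted p = 5.59e-08). The sgPrrx1 MEF and sgPrrx1 wound-healing fibroblasts thus held 6.64% and 4.82% of their WT means. In MMTV-CAF, Prelp stood at 178, 189 and 179 CPM in WT and 469, 468 and 459 CPM with sgPrrx1, a 2.56-fold higher mean (log2 fold change 1.34 ± 0.03, adjusted p = 2.60e-09).

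Fmod, which encodes fibromodulin, a regulator of fibril growth in tendon, was above 2 CPM in MMTV-CAF alone. There it stood at 67.6, 68.6 and 69.2 CPM in WT and 12.1, 13.0 and 12.0 CPM with sgPrrx1 (log2 fold change -2.49 ± 0.04, adjusted p = 4.54e-10). In wound-healing fibroblasts 161, 153 and 147 counts in WT stood against 0, 0 and 0 with sgPrrx1, at least 50.7-fold lower (adjusted p = 2.06e-06). In MEF it had 30, 32 and 27 counts in WT, 38, 24 and 28 in the mutant and 0, 0 and 0 with sgPrrx1. The sgPrrx1 MEF were at least 9.47-fold lower (adjusted p = 0.00224), whereas the mutant overlapped WT and was not called (log2 fold change -0.05, 95% interval -0.84 to 0.75).

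Omd, which encodes osteomodulin, a keratan sulfate proteoglycan of bone, fell in all 4 comparisons by very different amounts. It stood at 1.44, 1.32 and 1.71 CPM in WT MEF, 0.955, 0.755 and 0.704 CPM in mutant MEF (log2 fold change -0.91 ± 0.22, adjusted p = 0.0101) and 0, 0.0591 and 0.206 CPM in sgPrrx1 MEF (-4.00 ± 0.68, adjusted p = 0.00386). Without sgPrrx1 culture 3, which held 16 of the 20 Omd counts of its group, the sgPrrx1 MEF value was -5.59, and other single omissions gave up to -3.45. When all 9 MEF cultures shared 1 estimate of the spread, the fall in the mutant was no longer called (adjusted p = 0.143). In wound-healing fibroblasts it went from 5.59, 6.20 and 6.70 CPM to 0.559, 0.676 and 0.213 CPM (-3.64 ± 0.26, adjusted p = 1.95e-06) and in MMTV-CAF from 5.86, 5.72 and 5.44 CPM to 4.29, 4.64 and 4.30 CPM (-0.38 ± 0.06, adjusted p = 0.000567). The MMTV-CAF fall, to 77.8% of WT, was the smallest change called among the members.

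Lum, which encodes lumican, the keratan sulfate proteoglycan that spaces fibrils in the cornea and skin, had 12, 0 and 0 counts in WT MEF, 0 in every mutant culture and 8, 6 and 2 counts in sgPrrx1 MEF, too few to test. It had 12, 10 and 19 counts in WT wound-healing fibroblasts and 0, 0 and 0 with sgPrrx1, at least 4.49-fold lower (adjusted p = 0.000885). In MMTV-CAF it went from 1.07, 1.48 and 1.25 CPM to 0.0444, 0.111 and 0.0804 CPM (log2 fold change -3.99 ± 0.30, adjusted p = 4.42e-06), or 6.20% of WT. Kera, its neighbour, had 0, 0 and 0 counts in sgPrrx1 MMTV-CAF against the 10, 17 and 6 in WT, at least 3.79-fold lower and not tested.

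The class III gene Ogn, which encodes osteoglycin or mimecan, a matrix protein of bone, vessel wall and cornea, fell in both guide-targeted types outside the tumour, rose in MMTV-CAF and was not called in mutant MEF. It stood at 58.7, 61.7 and 54.2 CPM in WT MEF, 58.2, 48.7 and 50.1 CPM in mutant MEF and 4.08, 3.90 and 4.91 CPM in sgPrrx1 MEF. The mutant overlapped WT (log2 fold change -0.17, 95% interval -0.42 to 0.07, adjusted p = 0.183), and without mutant culture 1 it was called lower (-0.27, adjusted p = 0.0328). The sgPrrx1 MEF were fully below both (-3.77 ± 0.12 against WT, adjusted p = 5.55e-06). Ogn stood at 74.7, 73.3 and 77.6 CPM in WT and 18.5, 20.8 and 20.4 CPM in sgPrrx1 wound-healing fibroblasts (-1.92 ± 0.05, adjusted p = 3.55e-09). In MMTV-CAF it went from 111, 111 and 123 CPM to 335, 349 and 342 CPM, a 2.97-fold higher mean (1.55 ± 0.04, adjusted p = 7.01e-09).

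With Bgn lower and Dcn, Prelp and Ogn higher, the make-up of SLRP transcripts in MMTV-CAF changed more than their sum. The summed RPKM of the 10 genes was 1472 ± 13.1 (SD, n = 3) in WT and 1051 ± 11.4 in sgPrrx1 MMTV-CAF. The share of Bgn went from 89.6% to 45.4% ± 0.329, that of Dcn from 1.14% to 28.9% ± 0.252, that of Ogn from 3.08% to 12.8% ± 0.189 and that of Prelp from 3.42% to 12.3% ± 0.122. In the other Prrx1-targeted groups, Bgn made up a larger share than in WT, at 92.7% in mutant MEF, 97.4% in sgPrrx1 MEF and from 94.7% to 95.3% in the sgPrrx1 wound-healing fibroblast cultures, as the sum went down to 298, 281 and 209 RPKM from 630 RPKM in WT MEF and 458 RPKM in WT wound-healing fibroblasts. No culture of these groups overlapped its WT in the sum. In sgPrrx1 MMTV-CAF the adipocyte list moved as well. Its summed level was 190, 183 and 183 CPM against 7.18, 6.96 and 6.54 CPM in WT, nearly all of it Fabp4 (1 of 1 marker tested was called higher), while the defining adipocyte genes Plin1 and Adipoq were at 0 and 2 counts over the group. In the same cells the summed tendon list went from 12.2 to 26.5 CPM, now nearly all Mkx. Of the 3 tendon markers tested, 2 were called lower, Scx and Tnmd, the latter going from 11.9 CPM to 0. Only Mkx was called higher, from 0 to 26.4 CPM. The cartilage and bone list went from 102 to 59.5 CPM there, with 3 of 4 markers tested called lower. In mutant MEF the tendon list went from 23.2 to 35.2 CPM, with Scx at 28.0 CPM against 7.82 CPM in WT MEF and Mkx at 6.96 CPM against 15.4 CPM (2 of 3 markers called higher, and Mkx lower). The skeletal muscle list, mostly Des, went from 5.53 to 0.654 CPM in wound-healing fibroblasts, with Myog at 0. Leukocyte markers summed to at most 7.42 CPM and epithelial markers to at most 13.2 CPM in any group, while the endothelial list in wound-healing fibroblasts (290 CPM in WT, 142 CPM with sgPrrx1) was nearly all Kdr, with Pecam1 at 0. The leukocyte list went from 7.42 to 0.970 CPM in MMTV-CAF, where 3 of 3 markers tested were called lower. In sgPrrx1 MEF 1 of 2 leukocyte markers was called higher, and in sgPrrx1 wound-healing fibroblasts 2 of 3. Outside the MMTV-CAF the summed cartilage and bone list was higher in Prrx1-targeted groups. It was at 90.2 CPM in mutant and 68.8 CPM in sgPrrx1 MEF against 38.1 CPM in WT. In wound-healing fibroblasts it was at 62.9 CPM with sgPrrx1 against 41.4 CPM in WT. Of the markers tested, 3 of 4 were called higher in mutant MEF and 3 of 3 in wound-healing fibroblasts. In sgPrrx1 MEF 2 of 3 were called higher and 1 lower. There Sox9 went from 17.4 to 34.5 CPM and Runx2 from 19.1 to 34.1 CPM, while Col2a1 went from 1.53 to 0.177 CPM. The Schwann and neural list, mostly Tubb3 with Sox10 at 0 in every group, was at 67.6 CPM in WT, 6.57 CPM in mutant and 172 CPM in sgPrrx1 MEF, at 45.6 and 23.8 CPM in WT and sgPrrx1 wound-healing fibroblasts, and at 36.9 and 6.67 CPM in WT and sgPrrx1 MMTV-CAF. The part of these shifts in the SLRP results was not tested.

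**Figure D3:**
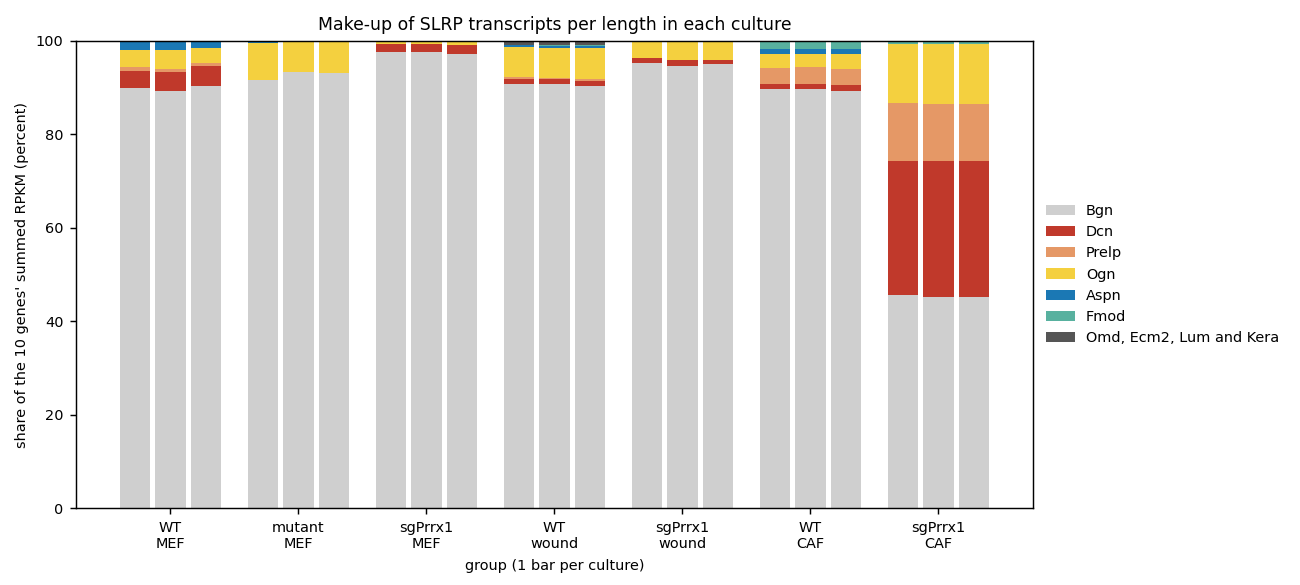
Share of each SLRP gene in the summed RPKM of the 10 genes (y axis, percent, stacked to 100) for each culture (bars, 3 per group along the x axis). Bgn fills 89.6% to 90.6% of the bar on average in WT groups and 45.4% in sgPrrx1 MMTV-CAF, where Dcn, Ogn and Prelp take most of the rest.

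Whether the change with sgPrrx1 differed between the 3 fibroblast types was tested with an interaction term over 18 cultures. The change differed for 7 of the 9 members tested, where 80.1% of 14972 genes did. For Dcn the log2 change in MMTV-CAF was 6.55 ± 0.16 above that in MEF (adjusted p = 1.35e-14) and 5.42 ± 0.16 above that in wound-healing fibroblasts (adjusted p = 7.69e-14). The corresponding differences were 5.28 ± 0.13 and 5.75 ± 0.14 for Prelp and 5.34 ± 0.11 and 3.53 ± 0.10 for Ogn. For Bgn the MMTV-CAF fell more than MEF (-0.41 ± 0.04, adjusted p = 4.72e-07), while wound-healing fibroblasts and MEF were not distinguished (-0.04, 95% interval -0.13 to 0.05). Omd fell less in MMTV-CAF than in MEF, by 3.64 ± 0.56 (adjusted p = 3.66e-05). For Aspn no difference between types was called (adjusted p = 0.147), with intervals of -2.79 to 0.14 for wound minus MEF, -1.45 to 0.19 for MMTV-CAF minus MEF and -0.75 to 2.13 for MMTV-CAF minus wound. Without the 1 sgPrrx1 wound culture that had 7 counts, the Aspn difference was called (adjusted p = 0.000600). Ecm2 was not called either over the 3 types (adjusted p = 0.0565). Of its pairwise differences in the same fit, only MMTV-CAF minus wound was called (1.78 ± 0.72, adjusted p = 0.0389). The call for Lum (adjusted p = 0.00681) rests on very few counts in MEF and became 0.403 with the mutant MEF in place of the sgPrrx1 MEF.

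The 2 kinds of Prrx1-targeted MEF, the knock-in mutant and the guide-targeted cells, differed from each other in 6 of 8 members tested, where 56.2% of 13379 genes differed. Dcn was higher in sgPrrx1 than in mutant MEF (log2 difference 6.02 ± 0.29, adjusted p = 1.18e-05), as was Prelp, which was at 0 counts in the mutant (adjusted p = 0.000182). Aspn (-1.54 ± 0.25, adjusted p = 0.00224), Omd (-3.10 ± 0.73, adjusted p = 0.0106) and Ogn (-3.60 ± 0.13, adjusted p = 4.22e-06) were lower in sgPrrx1 MEF, as was Fmod, which was at 0 counts there (adjusted p = 0.00174). Leaving out 1 culture moved the Omd difference between -4.68 (without sgPrrx1 culture 3) and -2.55, and the Dcn difference up to 6.61 (without mutant culture 2). Bgn was not distinguished (-0.01, 95% interval -0.15 to 0.14), nor was Ecm2 (-0.58, 95% interval -2.20 to 1.04, and -1.62 to -0.13 on leaving out 1 culture). The Prrx1 transcript itself was lower in the mutant, as given above.

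In MMTV-CAF each cluster held 1 member that rose beside at least 1 that fell. On chromosome 10, Dcn rose (4.16) while Lum, 47.3 kb further on, fell (-3.99), and Kera and Epyc, not tested, went from 33 counts each over the WT cultures to 0. On chromosome 13, Ecm2 (-0.94), Aspn (-6.95) and Omd (-0.38) fell while Ogn, 15.4 kb beyond Omd, rose (1.55). On chromosome 1, Prelp rose (1.34), Fmod fell (-2.49) and Optc, 0.615 kb from Prelp, was not called. In the other comparisons every called member fell, but by unlike amounts, as for Aspn (-7.58) and Ogn (-1.92) in wound-healing fibroblasts. In mutant MEF Aspn fell (-4.76), while Ogn was not called (-0.17). The promoter sequences shown above of Aspn and Ogn both hold TATAAA, and those genes moved in opposite directions in MMTV-CAF. Cenpp, whose span covers the chromosome 13 cluster on the other strand, rose in mutant MEF (1.33 ± 0.18, adjusted p = 0.000717) and MMTV-CAF (1.28 ± 0.12) and fell in wound-healing fibroblasts (-0.68 ± 0.06).

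**Figure D4:**
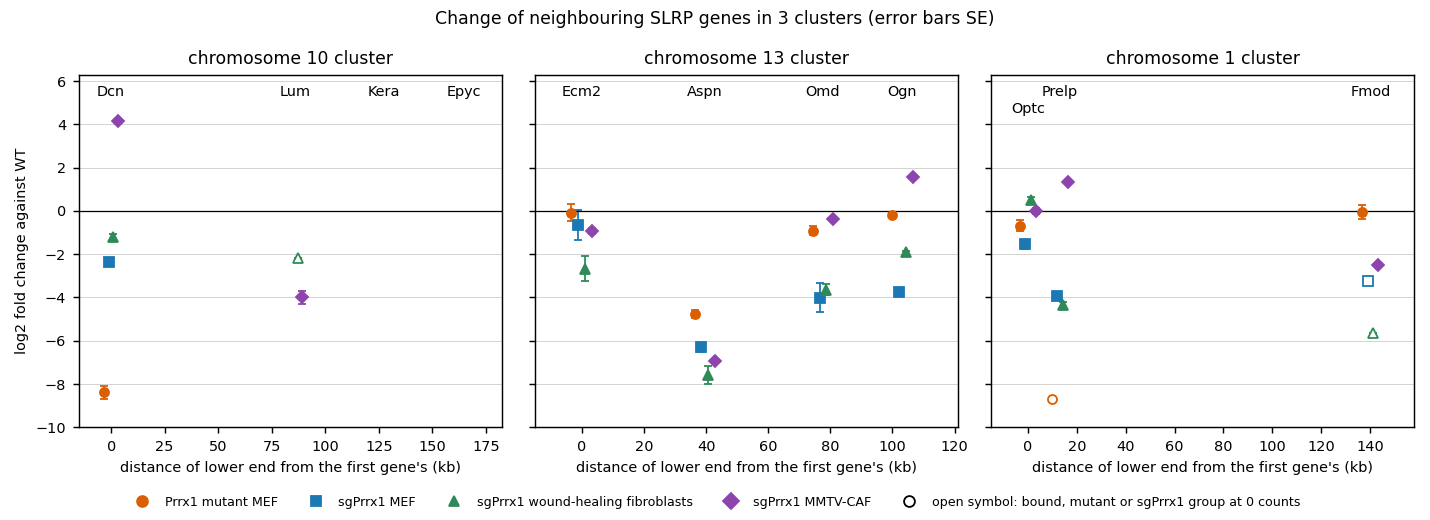
Log2 fold change against WT (y axis, SE as error bars) of neighbouring SLRP genes by distance along 3 clusters (x axis, kb from the first gene), with a symbol for each of the 4 comparisons, shifted slightly sideways for legibility, and open symbols at the bound for genes at 0 counts in Prrx1-targeted cells. In MMTV-CAF (diamonds) each cluster holds both a gene above 0 (Dcn, Ogn or Prelp) and a gene below 0.

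SLRP genes outside the 10 moved in both directions, with the shares of all genes given above as background. Of those tested, 3 of 5 fell and 1 rose in mutant MEF, and 2 of 5 fell and 2 rose in sgPrrx1 MEF. In wound-healing fibroblasts 1 of 5 fell and 3 rose, and in MMTV-CAF 2 of 6 fell and 3 rose. Podn, encoding podocan of class V, fell in mutant MEF (-1.65 ± 0.29), sgPrrx1 MEF (-1.80 ± 0.26) and MMTV-CAF (-3.86 ± 0.10, from a mean of 11.4 to 0.785 CPM) and rose in wound-healing fibroblasts (0.49 ± 0.17, adjusted p = 0.0289). Its relative Podnl1 rose in mutant MEF (2.03 ± 0.17, from 9.75 to 40.5 CPM) and sgPrrx1 MEF (1.19 ± 0.13) and fell in MMTV-CAF (-0.98 ± 0.04). Tsku, encoding tsukushi, an inhibitor of BMP and Wnt ligands, fell in mutant MEF (-0.52 ± 0.13) and rose in wound-healing fibroblasts (0.32 ± 0.05) and MMTV-CAF (0.28 ± 0.05). Chadl fell in wound-healing fibroblasts (-0.42 ± 0.13) and rose in sgPrrx1 MEF (0.81 ± 0.21) and MMTV-CAF (0.35 ± 0.11). Optc, near 1 CPM, fell in mutant (-0.69 ± 0.25) and sgPrrx1 MEF (-1.55 ± 0.20) and rose in wound-healing fibroblasts (0.49 ± 0.15), and Nyx rose in MMTV-CAF from 28 to 132 counts (2.22 ± 0.47). Chad was at 0 counts in all 21 cultures, and Epyc and Nepn never passed 33 counts over a group.

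More of the collagen genes tested fell than rose in every comparison. Of the fibril-forming collagen genes tested, 6 of 10 fell and 4 rose in mutant MEF, 8 of 10 fell in sgPrrx1 MEF, 7 of 11 fell and 3 rose in wound-healing fibroblasts and 8 of 11 fell and 2 rose in MMTV-CAF, with median log2 fold changes of -0.47, -0.77, -0.70 and -0.99. Col1a2 fell by 4.14 on the log2 scale in wound-healing fibroblasts, and Col11a1 fell by 6.75 in sgPrrx1 MEF and went to 0 counts, at least 508-fold lower, in sgPrrx1 MMTV-CAF. Col2a1, the cartilage collagen, rose in mutant MEF (2.66 ± 0.20) and fell in sgPrrx1 MEF (-3.13 ± 0.39). Of the genes for proteases that cut SLRPs, 7 of 9 fell in mutant MEF and 7 of 8 in sgPrrx1 MEF, 5 of 10 fell and 5 rose in wound-healing fibroblasts, and 7 of 10 fell and 3 rose in MMTV-CAF, with medians of -1.30, -1.37, 0.02 and -1.35. Adamts4 fell in mutant MEF (-3.15 ± 0.14), Adamts1 in sgPrrx1 MEF (-2.50 ± 0.09), Mmp3 rose in wound-healing fibroblasts (3.36 ± 0.28) and fell in MMTV-CAF (-3.52 ± 0.05), and Mmp2 rose in MMTV-CAF (2.11 ± 0.02).

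The enzymes that build the sugar chains had smaller median changes than the SLRP members. Of the chondroitin and dermatan sulfate enzyme genes, 8 of 21 fell and 6 rose in mutant MEF, 4 of 21 fell and 2 rose in sgPrrx1 MEF, 9 of 20 fell and 5 rose in wound-healing fibroblasts and 12 of 20 fell and 6 rose in MMTV-CAF, with medians of -0.11, -0.07, -0.11 and -0.19. The sulfotransferase gene Chst15 fell in mutant MEF (-2.34 ± 0.19) and wound-healing fibroblasts (-3.33 ± 0.16) and rose in sgPrrx1 MEF (0.75 ± 0.13) and MMTV-CAF (2.19 ± 0.06), and the chain polymerase gene Chsy3 fell in mutant MEF (-2.23 ± 0.55), sgPrrx1 MEF (-4.65 ± 0.78) and MMTV-CAF (-4.33 ± 0.20). Of the keratan sulfate enzyme genes, 4 of 7 fell in mutant MEF, 2 of 7 fell and 1 rose in sgPrrx1 MEF, 3 of 6 fell in wound-healing fibroblasts and 5 of 7 fell and 2 rose in MMTV-CAF, with medians of -0.30, 0.19, -0.27 and -0.58. B3gnt7 fell in mutant MEF (-3.13 ± 0.34) and rose in MMTV-CAF (1.77 ± 0.30).

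Of the genes for growth factors and receptors that SLRPs bind, 12 of 16 fell and 2 rose in mutant MEF, 12 of 16 fell in sgPrrx1 MEF, 10 of 16 fell and 5 rose in wound-healing fibroblasts and 7 of 15 fell and 6 rose in MMTV-CAF, with medians of -0.80, -0.64, -0.52 and -0.49. The Toll-like receptor gene Tlr2 fell in mutant MEF (-3.85 ± 0.36) and rose in wound-healing fibroblasts (1.79 ± 0.11) and MMTV-CAF (3.47 ± 0.05), Tgfbr2, a TGF-beta receptor gene, fell in wound-healing fibroblasts (-2.10 ± 0.02), and Bmp4 rose in MMTV-CAF (2.61 ± 0.03). Of other proteoglycan genes, 9 of 15 fell and 5 rose in mutant MEF, 8 of 15 fell and 1 rose in sgPrrx1 MEF, 7 of 15 fell and 6 rose in wound-healing fibroblasts and 10 of 14 fell and 4 rose in MMTV-CAF, with medians of -0.41, -0.46, 0.06 and -0.58. The glypican gene Gpc3 fell in mutant (-3.74 ± 0.93) and sgPrrx1 MEF (-5.29 ± 0.75), Gpc6 went from a mean of 73.3 CPM to 0 counts in MMTV-CAF (at least 2908-fold lower), and Vcan, the gene of versican, fell in wound-healing fibroblasts (-1.92 ± 0.03). The shares of all genes that fell or rose, given above for each comparison, are the background of these counts.

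Across the 21 cultures, whose groups, depths and tables the points share, the genes most like each member were listed by Pearson correlation of log2 CPM among 15093 genes, for members with a mean of at least 1 CPM, as a description. For Dcn they were Nectin2 (0.975), Creg1 (0.971) and Ralgps2 (0.961), for Bgn Gsn (0.989), Cd248 (0.978) and Acss2 (0.969), and for Aspn Dok5 (0.941), Fbln5 (0.925) and Eva1b (0.917). For Fmod they were Nsdhl (0.981), Abcd3 (0.978) and Dhrs3 (0.978), and for Prelp Mindy2 (0.988), Gbp6 (0.985) and Lgals9 (0.985). For Omd they were Sfrp1 (0.920), Nipsnap2 (0.919) and Cyp1b1 (0.919), and for Ogn Ptgfr (0.970), Fpgt (0.967) and Gstm7 (0.951). Among members, the highest correlations were those of Dcn with Prelp (0.930), Ecm2 with Fmod (0.901) and Omd with Ogn (0.884), and Dcn and Aspn had a low one (0.181).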

How the data were processed

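Total RNA of 21 mouse fibroblast cultures was sequenced (TruSeq RNA kit, 100 bp paired-end reads). The files deposited by the authors hold raw read counts per gene, and the submitters' processing notes name Trimmomatic, STAR, HTSeq and mm10, without versions. The study's methods end with a batch correction of counts by ComBat-seq, and whether the deposited mouse counts went through it is not given in the sources used here. Counts were tested with edgeR 4.0.16 (R 4.3.3, quasi-likelihood test, TMM scaling, filterByExpr, Benjamini-Hochberg adjustment over all genes) within each table and over tables only for differences between fibroblast types, where tables share no culture. Groups came from the sample labels, and the columns of the wound-healing fibroblast table, which name genotype and number but not cell type, were matched by elimination. DESeq2 1.42.0, other scalings, filters, a replicate block and leaving out each culture were alternatives. CPM are scaled over all cultures, and the floor is 3 counts per library. Intervals are 95% from the fitted error. The fits of the comparisons with WT and of the interaction were tested on simulated data with 200 changed genes. Those of WT levels and of sgPrrx1 against mutant MEF were not simulated. Far more genes were called in the data, so the simulation does not test the scaling under such wide change. Replicate counts differed beyond sampling noise in every pair, so no 2 cultures were merged. The members and gene lists were chosen with earlier results of these data known. Named were Prrx1, the 10 members, other SLRP genes tested, up to 2 largest called falls and rises of each list (of which the text gives some), the 3 genes most like each member and cluster neighbours. Exon lengths are from Gencode M1, positions and promoters from RefSeq GRCm38.p6. Depth ran from 69588655 to 134790440 counts per culture, and the spread between the 3 cultures of a group, which exceeded counting noise, sets the precision of most values.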

Additional observations from a re-analysis of the deposited data

Results flagged for a closer look

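The change with sgPrrx1 differed between MEF, wound-healing fibroblasts and MMTV-CAF by the interaction test of edgeR, over 18 cultures, for 7 of 9 members tested, where it differed for 80.1% of 14972 genes. The adjusted p was 1.63e-14 for Dcn, 5.22e-15 for Prelp and 3.85e-15 for Ogn, the genes that fell in MEF and wound-healing fibroblasts and rose in MMTV-CAF. It was 3.48e-07 for Bgn, 3.34e-06 for Omd, 1.64e-08 for Fmod and 0.00681 for Lum, none of them called higher in any type where it was tested. Lum was not tested in MEF alone (12 counts over WT and 16 over sgPrrx1), and Fmod was at 0 counts in sgPrrx1 MEF and sgPrrx1 wound-healing fibroblasts.

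The 2 kinds of Prrx1-targeted MEF differed in a direct edgeR test of 3 against 3 cultures for 6 of 8 members tested, where 56.2% of 13379 genes differed. The adjusted p was 1.18e-05 for Dcn and 0.000182 for Prelp, both lower in the mutant, and 0.00224 for Aspn, 0.00174 for Fmod, 0.0106 for Omd and 4.22e-06 for Ogn, all lower with the guide.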

How the results depend on the processing

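Over 104 repeats of the 7 counts of called members under other settings, 102 stayed within 1.5 times the main count. When members had to reach 10 counts in all cultures, the count became 3 of 6 in mutant MEF and 5 of 5 in wound-healing fibroblasts. This filter removes members with fewer counts in any culture, as for Prelp (0, 0 and 0) and Dcn (8, 20 and 6) in mutant MEF. Of 851 repeats of 60 single values, 829 kept direction and call. Values near 0 changed sign when a culture was left out: Ecm2 in mutant MEF between -0.37 and 0.16 (0.16, 0.05 and 0.06 without WT culture 1 or mutant culture 2 or 3), Fmod in mutant MEF between -0.24 and 0.15 (0.02, 0.06 and 0.15 without WT culture 1 or 2 or mutant culture 2), and Bgn in sgPrrx1 against mutant MEF between -0.0444 and 0.0106 (0.0106, 0.00172 and 0.000492 without mutant culture 2 or 3 or sgPrrx1 culture 3). DESeq2 called the interaction for Aspn (0.0227) and Ecm2 (0.0396), as did the mutant in place of the sgPrrx1 MEF (2.00e-05 and 0.00754), and 4 single omissions called Ecm2 (0.0189 to 0.0486). The causes were not tested.

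Correlations of deviations between cultures with the same number were -0.253 to -0.0574 for mutant and WT MEF, -0.0453 to 0.203 for sgPrrx1 and WT MEF, -0.0693 to 0.0049 in wound-healing fibroblasts, -0.0301 to 0.0376 in MMTV-CAF and -0.355 to 0.0591 for sgPrrx1 and mutant MEF. In no comparison were all 3 above 0.1, so the numbers were not taken to pair the cultures. With a replicate block the counts stayed at 5, 7, 9 and 9 in the 4 comparisons, 7 for the interaction and 9 for WT levels, and went from 6 to 5 between the 2 kinds of MEF, Omd being lost (log2 difference -3.35, adjusted p = 0.0534).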
